A study of Mus musculus with 2 samples.

Results

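The transcripts described here encode 10 enzymes that set the level of the second messenger cAMP in pancreatic islet cells: the phosphodiesterases Pde1c, Pde3b, Pde4b, Pde4d, Pde8b and Pde10a and the adenylyl cyclases Adcy5, Adcy6, Adcy8 and Adcy9. They were taken by gene symbol, and all 10 were found among the 28692 genes of the deposited single-cell matrices. In beta cells Pde3b and Pde10a were the most abundant of the 10. Pde4b, Pde10a and Pde4d were higher in beta cells of the library labelled BcBKO than in those of the flox/flox library, by 1.65, 1.49 and 1.30 times. Pde1c and Adcy9 had ratios of 1.24 and 1.21, and Pde3b and Adcy6 of 1.01 and 0.991. With hormone and mitochondrial genes left out of the totals the ratio of Pde4d was 1.24. Each group was 1 library, so these are differences between 2 libraries and no test of the genotype was possible.

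Adenylyl cyclases make cAMP from ATP when stimulatory G proteins, for example those coupled to the receptors of the gut hormones GLP-1 and GIP, activate them, and phosphodiesterases break cAMP down. In beta cells cAMP acts through protein kinase A and the exchange factors of the Epac family, and it amplifies insulin release triggered by glucose. The enzymes differ in how calcium and other signals act on them: PDE1 enzymes are stimulated by calcium and calmodulin, PDE3B is inhibited by cGMP and is known in beta cells as a brake on insulin release, the PDE4 and PDE8 families are specific for cAMP, and PDE10A hydrolyses both cAMP and cGMP. Adenylyl cyclase 8 is stimulated by calcium and calmodulin, and cyclases 5 and 6 are inhibited by calcium.

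The study profiled islets of flox/flox mice and of mice labelled BcBKO, described by the submitters as carrying an ablation specific to beta cells and associated with Pdx1-cre, a Cre recombinase under the promoter of a pancreatic transcription factor. The series title names BAF60C, the chromatin-remodelling subunit encoded by Smarcd3. Islets of at least 3 mice were pooled per group, dissociated and made into 1 droplet library with a 3′ tag-counting kit. Age, sex, strain, diet and the Cre status of the flox/flox mice are not given in the labels. The libraries held 167670996 and 178647270 UMIs (unique molecular identifiers, each counting 1 captured RNA molecule), here and below in the order flox/flox, then BcBKO. A level is given in CPM, the count of UMIs per 1000000 UMIs of the cell class. Since a 3′ tag is counted once per molecule, levels of different genes need no correction for transcript length, although capture may differ between genes. Intervals in parentheses are exact 95% intervals that cover counting error only, not differences between mice or preparations.

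Cells were placed in 6 classes by the UMIs of a few defining genes. A beta cell had at least 25% of its UMIs from Ins1 and Ins2, at least 10000 UMIs and under 1% from each of Gcg, Sst and Ppy. The other classes had under 15% from insulin genes and were defined by Gcg (alpha, at least 10%), Sst (delta, at least 5%), Plvap and Cdh5 (endothelial, at least 3 UMIs), Rgs5 and Pdgfrb (mural, at least 5 UMIs) and C1qa and C1qb (macrophage, at least 5 UMIs). There were 2750 and 3058 beta cells with medians of 38461.5 and 33171.5 UMIs, 415 and 714 alpha cells, 281 and 371 delta cells, 1763 and 1516 endothelial cells, 794 and 665 mural cells and 463 and 367 macrophages. Each of the 6 marker lists that did not define the classes was highest in its own class, although Lepr was at 0 in delta cells and delta cells also held the 7 beta markers, among them Iapp, at a summed 22465 and 23260 CPM, against 57674 and 61637 in beta cells. The alpha and delta rules set no limit on Ppy. The 2 PP-cell markers, Ppy and Pyy, were at a summed 80538 and 70652 CPM in alpha cells and 94942 and 96702 CPM in delta cells. The mural label held only in part: 71.9% and 75.5% of its cells also met another class, mostly endothelial. The class held 6 endothelial markers at a summed 9486 and 10273 CPM, close to the 12113 and 12752 CPM of the endothelial class. Levels in the vessel classes and macrophages are therefore given also for cells that met 1 class only. The libraries had 23 cell barcodes in common, and without those cells each count of members called between libraries was as in the full set. Smarcd3 in beta cells was not lower in the library labelled BcBKO: it had 45 and 71 UMIs, or 0.374 and 0.610 CPM, a ratio of 1.63 (1.11 to 2.42). Both levels are under the minimum of 5 CPM used below. The mural class held Smarcd3 at 22.5 and 15.5 CPM, and the part of carried-over RNA in the beta-cell counts was not tested. Which exons are flanked by lox sites is not given in the labels, so a 3′ tag outside them would check nothing, and the second library is called by its label throughout.

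Promoter sequences are shown for 3 of the 10 genes, because cAMP itself acts on transcription through CREB, which binds the cAMP response element. RefSeq entries (GRCm38.p6) gave 17 start sites for 7 of the 10 genes. No sequence is shown for Pde3b, Adcy6 and Adcy8. Each line gives the 250 bases before an annotated start, 5′ to 3′ on the strand of the gene. Capitals mark TGACG, the core of the response element, or CGTCA, the same core on the opposite strand.
Pde4b chr4:102421305-102421554 (+): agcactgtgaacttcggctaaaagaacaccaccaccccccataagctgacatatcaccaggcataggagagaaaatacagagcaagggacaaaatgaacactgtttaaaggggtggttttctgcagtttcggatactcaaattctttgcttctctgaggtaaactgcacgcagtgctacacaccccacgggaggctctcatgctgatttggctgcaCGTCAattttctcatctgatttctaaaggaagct
Adcy9 chr16:4420499-4420748 (-): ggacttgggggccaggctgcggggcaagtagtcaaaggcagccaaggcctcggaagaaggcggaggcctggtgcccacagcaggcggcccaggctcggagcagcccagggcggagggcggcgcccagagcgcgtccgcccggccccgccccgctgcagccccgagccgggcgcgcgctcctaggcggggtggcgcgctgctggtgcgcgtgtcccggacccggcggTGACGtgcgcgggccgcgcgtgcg
Pde10a chr17:8801495-8801744 (+): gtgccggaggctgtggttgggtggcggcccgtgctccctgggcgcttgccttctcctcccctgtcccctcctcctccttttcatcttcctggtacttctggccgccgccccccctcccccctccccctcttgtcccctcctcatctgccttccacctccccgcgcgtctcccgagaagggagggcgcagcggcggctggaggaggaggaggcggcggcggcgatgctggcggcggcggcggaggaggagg
The core was present in 1 of the 4 Pde4b windows, in the Adcy9 window and in neither of the 2 Pde10a windows. The 1 window of Pde4d, not shown, did not hold it. In all, 2 of the 17 windows held it, both of them among those shown, against 17.8% of the 32851 promoters of the same length searched on both strands. The full palindrome TGACGTCA, found in 1.55% of all promoters, was in none of the 17. These matches describe letters in a window, and 3′ tags do not show which start site was in use.

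Among beta cells the 10 genes fell into a measurable set of 7 and a scarce set of 3. Pde3b (ENSMUSG00000030671; GRCm38 chromosome 7, 114415281 to 114539251, plus strand), the cGMP-inhibited phosphodiesterase, was at 31.1 and 31.3 CPM and ranked first in both libraries. Pde10a (ENSMUSG00000023868; chromosome 17, 8525372 to 8986648, plus strand) was second, at 20.0045 and 29.9 CPM. Adcy9 (ENSMUSG00000005580; chromosome 16, 4287529 to 4420498, minus strand), a widely expressed cyclase, was at 9.59 and 11.6 CPM and was the highest of the 4 cyclases. Pde4b (ENSMUSG00000028525; chromosome 4, 102087543 to 102607259, plus strand) was at 8.32 and 13.7 CPM. It was below Adcy9 in the flox/flox library and above it in the library labelled BcBKO, each time beyond the counting interval. Pde4d (ENSMUSG00000021699; chromosome 13, 108449948 to 109953461, plus strand) was at 6.53 and 8.49 CPM, Adcy6 (ENSMUSG00000022994; chromosome 15, 98589973 to 98610076, minus strand) at 6.42 and 6.36 CPM, and Pde1c (ENSMUSG00000004347; chromosome 6, 56069804 to 56569103, minus strand) at 6.40 and 7.93 CPM. The order of these last 3 could not be told apart in the flox/flox library.

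The remaining genes were scarcely detected in beta cells. Pde8b (ENSMUSG00000021684; chromosome 13, 95024454 to 95250336, minus strand), a cAMP-specific enzyme, had 36 and 22 UMIs among the 120173034 and 116428063 of the class, or 0.300 and 0.189 CPM. Adcy5 (ENSMUSG00000022840; chromosome 16, 35154877 to 35305738, plus strand) had 14 and 10 UMIs. Adcy8 (ENSMUSG00000022376; chromosome 15, 64697084 to 64922296, minus strand), the calcium-stimulated cyclase, had 0 and 2 UMIs, and the count of 0 allows up to 0.0250 CPM. The measured cyclase transcripts of these beta cells were thus mainly Adcy9 and Adcy6. The other adenylyl cyclase genes, Adcy1, Adcy2, Adcy3, Adcy4, Adcy7 and Adcy10, were each under the minimum of 5 CPM in beta cells, and Adcy3 was the highest of them at 0.574 and 0.567 CPM.

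**Figure D1:**
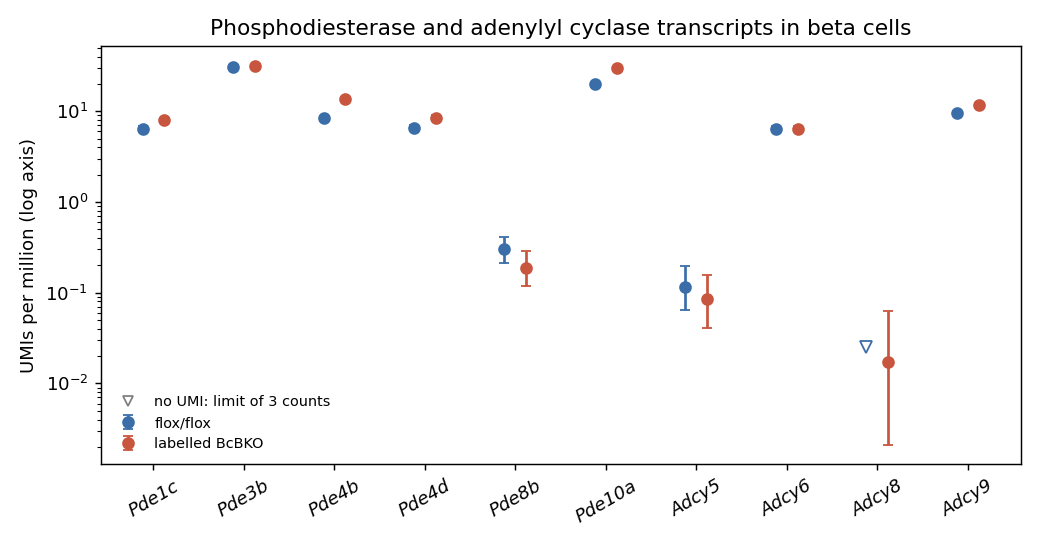
Level of each of the 10 genes in beta cells of the flox/flox library (blue) and the library labelled BcBKO (red), in CPM on a log axis; each point is 1 library, bars are exact 95% Poisson intervals and the open triangle is the limit of 3 counts where no UMI was seen. Pde3b and Pde10a are highest, and Pde8b, Adcy5 and Adcy8 are all under 1 CPM. The intervals of Pde4b, Pde10a, Pde4d, Pde1c and Adcy9 do not overlap between the libraries. The share of all genes with such intervals is not given here.

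The libraries were compared in beta cells over genes that reached 5 CPM in 1 library or both and had 50 UMIs or more in all. A gene was called where its level in the library labelled BcBKO was more than 25% above that in the flox/flox library, or below it by more than the same factor; ratios are given in that direction. Of the 10 members 7 passed the minimum, 3 were called higher and 0 lower, against 5.56% of 7745 genes called in either direction (4.22% higher and 1.34% lower). Over all genes 327 were called higher and 104 lower on this scale, 462 and 334 without hormone and mitochondrial genes in the totals and 176 and 179 with TMM scaling, where 2 members each were called, both higher. The median ratio of the 7 was 1.24, and that of all 7745 genes was 1.04. Pde4b, a cAMP-specific phosphodiesterase, had 1000 and 1600 UMIs and the largest ratio, 1.65 (1.53 to 1.79). Pde10a had 2404 and 3479 UMIs and a ratio of 1.49 (1.42 to 1.57). Pde4d, the other PDE4 gene among the members, had 785 and 989 UMIs and a ratio of 1.30 (1.18 to 1.43). With hormone and mitochondrial genes left out of the totals the ratios of Pde4b, Pde10a and Pde4d were 1.57, 1.42 and 1.24, so that Pde4d was no longer called. Pde4d was also under the limit with TMM scaling, at 1.23.

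The other 4 measured members were under the limit. Pde1c was just below it at 1.24 (1.12 to 1.37), and was at 1.05 with each cell thinned to 10000 UMIs. Adcy9 was at 1.21 (1.12 to 1.31). Pde3b, the most abundant of the 10, had 3736 and 3648 UMIs and a ratio of 1.01 (0.963 to 1.06), or 0.960 without hormone and mitochondrial genes in the totals. Adcy6 had a ratio of 0.991 (0.895 to 1.10).

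The same genes were looked at as shares of beta cells with a UMI. A Pde10a UMI was found in 51.8% (49.9 to 53.7) of flox/flox beta cells and 57.7% (55.9 to 59.5) of those of the library labelled BcBKO. A Pde4b UMI was found in 27.2% (25.5 to 28.9) and 37.9% (36.2 to 39.7). Because the second library was shallower per beta cell, cells were also thinned to 10000 UMIs, which left out no beta cell. Thinned shares were 17.7% (16.3 to 19.2) and 25.2% (23.6 to 26.8) for Pde10a and 6.62% (5.72 to 7.61) and 12.7% (11.5 to 13.9) for Pde4b. For Pde3b the unthinned share was lower in the second library, at 70.3% and 64.7%, but the thinned shares were 26.5% (24.9 to 28.2) and 28.6% (27.0 to 30.2). Macrophages of 1 class gave the background for Pde10a: 0 of 422 and 0 of 331 of them, at median depths of 5474.5 and 4999 UMIs, had a Pde10a UMI, which allows shares of up to 0.711% and 0.906%. With beta cells thinned to 3000 UMIs, under the median depth of those macrophages, 6.25% and 8.50% had one. Macrophages that also met another class were left out of this background, and they held all 29 and 43 Pde10a UMIs of the class. The background of 0 therefore depends on leaving them out. In the whole macrophage class thinned to 3000 UMIs, 0.913% (0.249 to 2.32) and 1.99% (0.803 to 4.05) of cells had a Pde10a UMI. No class lacked Pde4b, so no such background could be given for it.

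Several marker lists differed between the libraries in beta cells beside these genes. The summed level of 4 B-lymphocyte markers was 23.3 and 102 CPM, that of 2 PP-cell markers 367 and 639 CPM, and that of 6 acinar markers 136 and 22.0 CPM. The 6 endothelial markers were at 52.1 and 52.6 CPM and the 6 macrophage markers at 12.1 and 16.3 CPM. After removal of the 316 and 274 beta cells with 5 or more UMIs over the B-lymphocyte, T and NK, macrophage, endothelial and mural lists, an alternative chosen after seeing the data, the ratios were 1.68 for Pde4b, 1.51 for Pde10a and 1.33 for Pde4d, and Adcy9 was past the limit at 1.26. The part of the PP and acinar lists in the results was not tested. Pde4b is abundant in endothelial cells and macrophages, and RNA carried over in proportion to their defining genes would have given beta cells 0.452 and 0.419 CPM of Pde4b from the former and 0.310 and 0.530 from the latter, beside the measured 8.32 and 13.7. No such value was computed for B lymphocytes. For Pde10a the corresponding levels from delta cells were 0.0862 and 0.267 CPM.

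Alpha cells had the same 7 genes above the minimum, with 4 called higher and 0 lower in the library labelled BcBKO, against 21.1% of 9663 genes called in either direction (17.2% higher and 3.92% lower). Pde4b was again the furthest from equal, at 8.80 and 14.5 CPM, a ratio of 1.65 (1.20 to 2.29), from 56 and 135 UMIs. Pde10a was at 72.6 and 92.2 CPM, a ratio of 1.27 (1.13 to 1.43). Adcy9 at 9.11 and 11.7 CPM and Pde1c at 20.9 and 26.3 CPM had ratios of 1.29 (0.927 to 1.80) and 1.26 (1.02 to 1.57). Under the totals without hormone and mitochondrial genes, under TMM scaling and with cells weighted equally, Pde4b alone of the 7 was past the limit, at 1.58, 1.53 and 1.70. The 1658 genes higher and 379 lower of the first scale were 1371 and 650 under the first of these alternatives and 911 and 772 under the second.

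Delta cells had 2 members called higher, Pde4d and Pde1c, and 0 lower, against 21.7% of 9433 genes (10.8% higher and 10.9% lower). Pde4d was at 30.2 and 40.0 CPM, a ratio of 1.32 (1.03 to 1.71), and Pde1c at 22.5 and 28.2 CPM, a ratio of 1.255 (0.936 to 1.69). Without the delta cells that met another class their ratios were 1.17 and 1.13, and no member was called. The 4 B-lymphocyte markers were at 33.7 and 2884 CPM in delta cells and the 6 acinar markers at 491 and 80.1 CPM. Carry-over from alpha cells in proportion to Gcg would have given 6.80 and 10.0 CPM of the measured Pde4d. The part of these in the result was not tested. Pde4b was at 26.5 and 27.0 CPM, a ratio of 1.02 (0.769 to 1.36), where beta and alpha cells had 1.65. The highest delta-cell transcript of the 10, Pde10a, was at 119.7 and 142.7 CPM, a ratio of 1.19 (1.05 to 1.35). Whether the library difference of a gene differed between cell classes was not tested, since each class had 1 library per group.

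**Figure D2:**
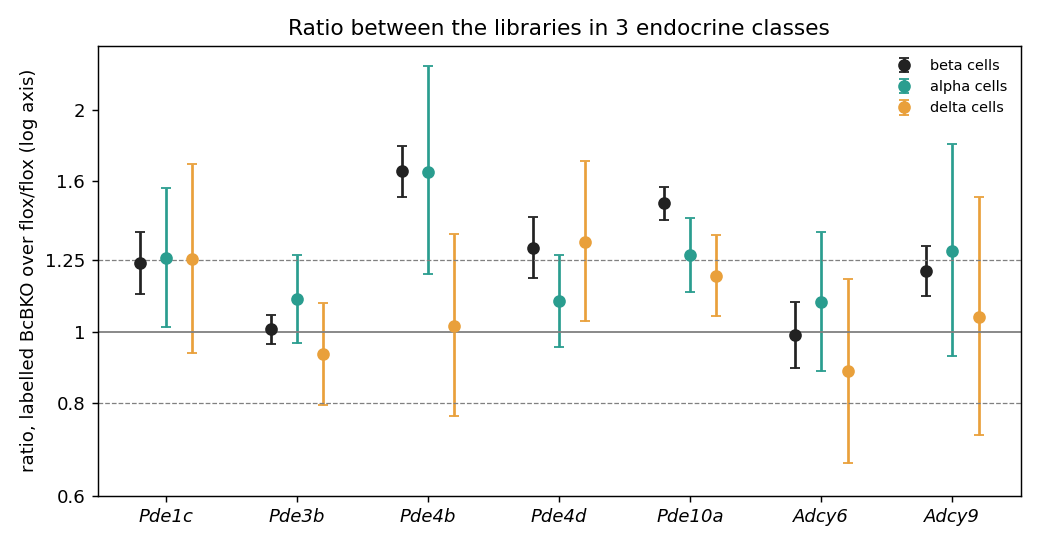
Ratio of the level in the library labelled BcBKO to that in the flox/flox library, on a log axis, for the 7 genes above the minimum in beta (black), alpha (green) and delta (orange) cells; bars are exact 95% intervals for counting error, the solid line is equality and the dashed lines mark the limits of a call, 25% above equal and the same factor below. Pde10a is above 1 in all 3 classes with its interval, Pde4b and Pde1c in beta and alpha cells, Pde4d in beta and delta cells. Adcy9 is so in beta cells only, and Pde3b and Adcy6 have intervals that include 1 in all 3.

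The endocrine classes differed from each other in these genes, and the size of the difference depended on the scale, since hormone and mitochondrial transcripts made up 72.2% and 70.9% of beta-cell UMIs, 43.5% and 40.9% in alpha cells and 36.3% and 37.0% in delta cells. On the scale of all UMIs, 4 members were at least 2-fold lower in beta than in alpha cells in both libraries (Pde1c, Pde4d, Pde10a and Adcy6) and 0 were higher, against 36.2% of 9321 genes called in either direction (34% lower and 2.22% higher). Against delta cells 5 were lower, the same 4 and Pde3b, and 0 higher, against 57.8% of 9724 genes (56.4% lower and 1.39% higher). On the scale of UMIs other than hormone and mitochondrial genes, 1 member was lower in beta than in alpha cells and 1 higher, against 14.6% of genes (5.27% lower and 9.31% higher). On that scale 2 were lower in beta than in delta cells and 0 higher, against 13.2% (6.92% lower and 6.26% higher). The change of scale moved the median beta-over-alpha ratio of all genes from 0.549 to 1.13 and that of the 7 measured members from 0.304 to 0.617, and the beta-over-delta medians from 0.439 to 0.989 and from 0.283 to 0.631.

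Pde4d was lower in beta cells on both scales. On the scale without hormones it was at 23.5 and 29.2 CPM in beta cells, 86.4 and 91.0 in alpha cells and 47.4 and 63.6 in delta cells. Alpha cells thus had 3.67 times and 3.12 times the beta-cell level. Pde10a on that scale was at 72.1 and 102.6 in beta cells, 128.4 and 156.2 in alpha cells and 187.9 and 226.5 in delta cells, so delta cells had 2.61 and 2.21 times the beta-cell level. The order delta, alpha, beta for Pde10a was the same in both libraries and on both scales.

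Adcy9 was the member called higher in beta than in alpha cells, and only on the scale without hormones. There it was at 34.6 and 39.8 CPM in beta cells and 16.1 and 19.8 in alpha cells, ratios of 2.14 (1.65 to 2.84) and 2.01 (1.65 to 2.46). On the scale of all UMIs, the ratios were 1.05 and 0.990. Pde4b behaved likewise, with beta-over-alpha ratios of 1.93 and 1.92 without hormones and 0.946 and 0.947 on all UMIs. In cells of 1 class only, the ratios without hormones were 2.04 and 1.95 for Adcy9 and 2.10 and 2.26 for Pde4b. There Pde4b was past 2-fold in both libraries and Adcy9 was not. Pde3b was at 0.584 and 0.531 times the alpha-cell level on all UMIs, and at 1.19 (1.06 to 1.33) and 1.08 (0.984 to 1.18) times without hormones, where the second interval includes 1. The change of totals multiplies the ratio of every gene by the same factor within a library. Alpha and delta cells differed from each other by 2-fold or more in both libraries in 0 of 7 measured members, against 7.35% of 9540 genes (5.63% lower and 1.72% higher), and in 0 without hormones, against 6.48% (4.55% lower and 1.93% higher). In cells of 1 class only, Pde4b was past 2-fold, at 7.98 and 12.2 CPM in alpha cells and 30.1 and 30.1 in delta cells. Without hormones those delta cells had 3.27 and 2.27 times the alpha-cell level of Pde4b.

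Adcy8 had its UMIs mostly in delta cells, 18 and 8, or 5.18 and 1.86 CPM, and was under the minimum number of UMIs. In delta cells of 1 class the counts were 13 and 8. Alpha cells had 5 and 0 UMIs, of which 1 and 0 were in cells of 1 class. Pde8b had no UMI in delta cells of either library, which allows up to 0.864 and 0.698 CPM.

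**Figure D3:**
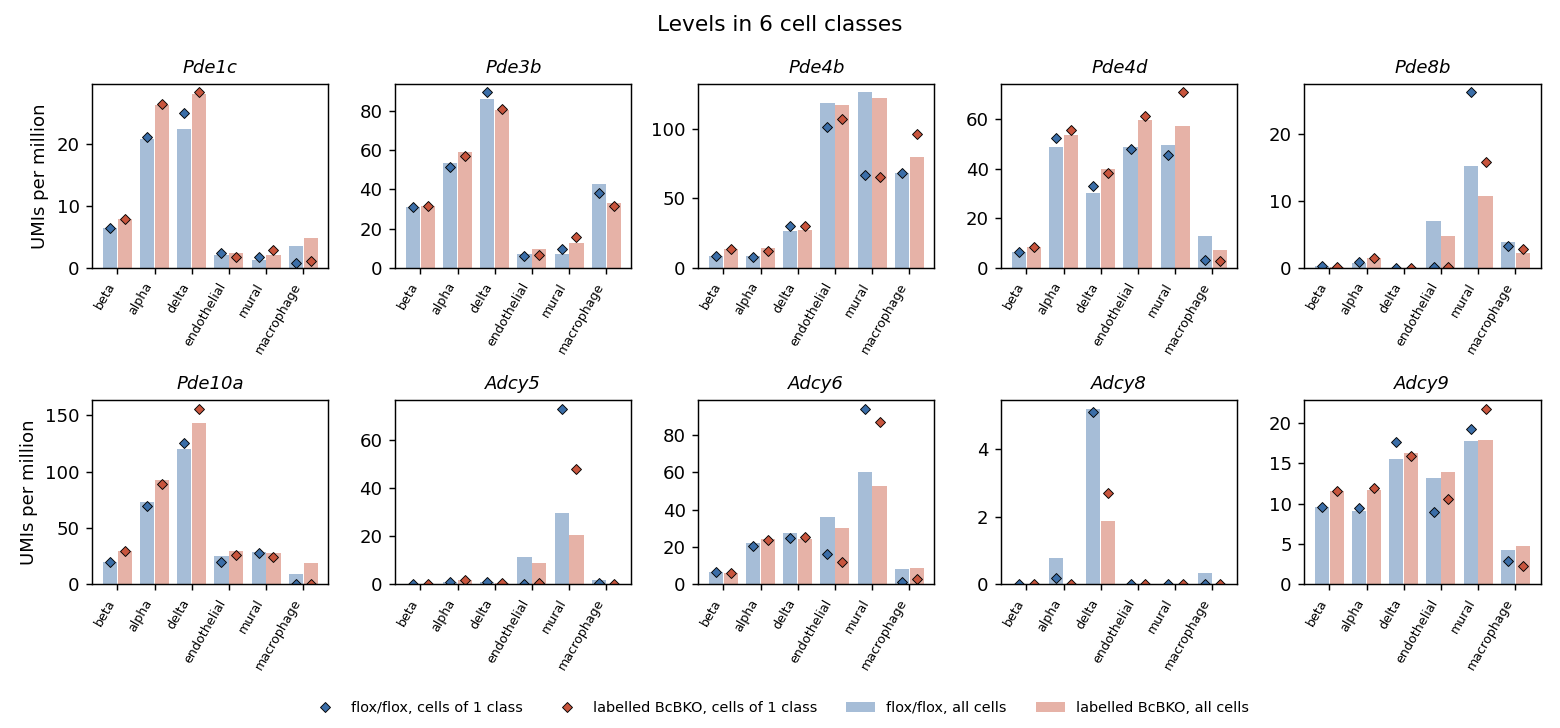
Level of each gene in CPM in 6 cell classes of the flox/flox library (blue) and the library labelled BcBKO (red), with a linear axis from 0 for each gene; bars are all cells of a class and diamonds the cells that met 1 class only, each from 1 library. Pde10a and Pde3b are highest in delta cells, Pde4b in vessel cells and macrophages, and the diamonds of Pde8b and Adcy5 stand in the mural class and near 0 in the endothelial class.

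Vessel cells and macrophages held these genes in another order. In cells of 1 class, Pde4b was at 101.5 and 107.2 CPM in 1178 and 996 endothelial cells, 66.6 and 65.1 in 223 and 163 mural cells and 68.7 and 96.3 in 422 and 331 macrophages. Adcy6 reached 93.8 and 86.8 CPM in mural cells, against 16.4 and 12.2 in endothelial cells. Adcy5, its close relative among the calcium-inhibited cyclases, was at 72.7 and 47.7 CPM in mural cells and had 2 and 3 UMIs in all endothelial cells of 1 class. Pde8b was likewise at 26.3 and 15.9 CPM in mural cells of 1 class and had 1 UMI in each library in endothelial ones. Macrophages held Pde3b, at 38.1 and 31.4 CPM, beside Pde4b. Pde10a had 0 UMIs in macrophages of 1 class, which allows up to 1.24 and 1.68 CPM, so that its 29 and 43 UMIs in the whole class came from cells that met another class too.

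Between the libraries, 8 members passed the minimum in the whole endothelial class, with Pde3b called higher and Pde8b and Adcy5 lower, against 13.1% of 10314 genes (6.43% higher and 6.62% lower). Pde8b was at 6.95 and 4.81 CPM and Adcy5 at 11.3 and 8.76 CPM there, and nearly all of these UMIs were in cells that also met another class. In endothelial cells of 1 class other members were past the limit: Pde10a at 1.33 (1.04 to 1.72) and Pde4d at 1.28 (1.09 to 1.51) were higher, and Adcy6 at 0.742 (0.531 to 1.03) was lower, while Pde3b was at 1.08. The 13.1% is for the whole class, and the share of all genes past the limit in these fewer cells is not given here. In the mural class Pde3b was higher, at 7.01 and 12.6 CPM, and Pde8b and Adcy5 were lower, against 16.9% of 10474 genes (7.63% higher and 9.3% lower). In mural cells of 1 class Pde3b had 11 and 11 UMIs, a ratio of 1.65 (0.649 to 4.198), and Pde8b 30 and 11 UMIs, a ratio of 0.605 (0.274 to 1.24), both under the minimum of 50 UMIs and so not called. Adcy5 was at 29.4 and 20.6 CPM in the whole class, a ratio of 0.699 (0.557 to 0.874), and in mural cells of 1 class its ratio was 0.656 (0.425 to 0.993). Pde4d in mural cells of 1 class was at 45.6 and 70.9 CPM, a ratio of 1.56 (1.03 to 2.34), where the whole class had 1.16. For mural cells of 1 class, too, no share of all genes past the limit is given here. Beside this the 6 mural markers were at a summed 3344 and 2330 CPM in the mural class and 1154 and 834 CPM in the endothelial class. In the endothelial class the 4 B-lymphocyte markers were at 1323 and 41.2 CPM, the 6 acinar markers at 1029 and 122 CPM, the alpha markers at 444 and 949 CPM and the beta markers at 2771 and 4167 CPM. The part of these lists in the result was not tested.

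In macrophages 4 members passed the minimum, with Pde10a called higher and Pde3b and Pde4d lower, against 33.2% of 7876 genes (8.77% higher and 24.4% lower). The 691 genes higher and 1925 lower were 967 and 1542 without hormone and mitochondrial genes and 1045 and 1463 with TMM scaling. Pde3b was at 42.8 and 32.8 CPM, a ratio of 0.767 (0.571 to 1.03), and Pde4d had 39 and 17 UMIs. In macrophages of 1 class none of these 3 calls held: Pde10a had no UMI, Pde3b was inside the limit at 0.824 (0.580 to 1.16) and Pde4d, with 8 and 5 UMIs, was under the minimum. A call of Pde4b appeared there, at 1.40 (1.13 to 1.75). The 33.2% is for the whole class, and no such share is given here for macrophages of 1 class. Beside these values the 6 mural markers were at 189.8 and 24.2 CPM in the whole macrophage class, the 6 endothelial markers at 836 and 439 CPM and the 2 PP markers at 9239 and 24653 CPM. RNA carried over from alpha cells in proportion to Gcg would have given macrophages 4.61 and 10.5 CPM of Pde10a, beside the measured 9.47 and 18.6. The part of these in the result was not tested.

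Beta cells were also divided into 3 parts by their share of insulin UMIs, to see whether the genes varied with insulin content. The lowest part of the flox/flox library ran from 25.7% to 62.4% insulin UMIs and the highest from 66.3% to 82.0%. Levels here are in CPM of the UMIs other than Ins1 and Ins2. Between the lowest and the highest part, 0 of the 7 measured members were past the 25% limit in both libraries, against 8.16% of 10164 genes (6.55% higher and 1.6% lower in the lowest part). Pde3b was at 85.4 CPM in the lowest and 84.4 in the highest part of the flox/flox library, and 78.8 and 84.5 in the other. Pde10a was at 58.3 and 52.0, and 81.2 and 79.2. Its level in every part of the library labelled BcBKO was above that in every part of the flox/flox library. The same held for Pde4b, at 23.2 to 23.5 CPM against 33.7 to 39.0. It also held for Pde1c, at 16.3 to 19.7 CPM against 20.4 to 21.7, and for Pde4d, at 16.3 to 20.9 against 21.4 to 23.2. The 3 parts of a library share its preparation, and the share of all genes with this pattern is not given here. Pde4d in the lowest part was 1.28 times its level in the highest part in the flox/flox library and 0.924 times in the other. The scarce Adcy5 was at 0.719 and 0.533 CPM in the lowest part and 0.142 and 0.0699 in the highest. These are ratios of 5.07 (1.08 to 47.6) and 7.62 (1.02 to 338). The 6 mural markers were at 60.8 and 36.9 CPM in the lowest part and 5.39 and 5.59 in the highest. The 6 endothelial markers were at 329 and 292 against 45.8 and 46.6 CPM, and the 6 macrophage markers at 74.7 and 79.5 against 11.6 and 17.2. The B-lymphocyte and PP lists were also higher in the lowest part, and the beta and alpha lists were lower. The part of these lists in the result was not tested.

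**Figure D4:**
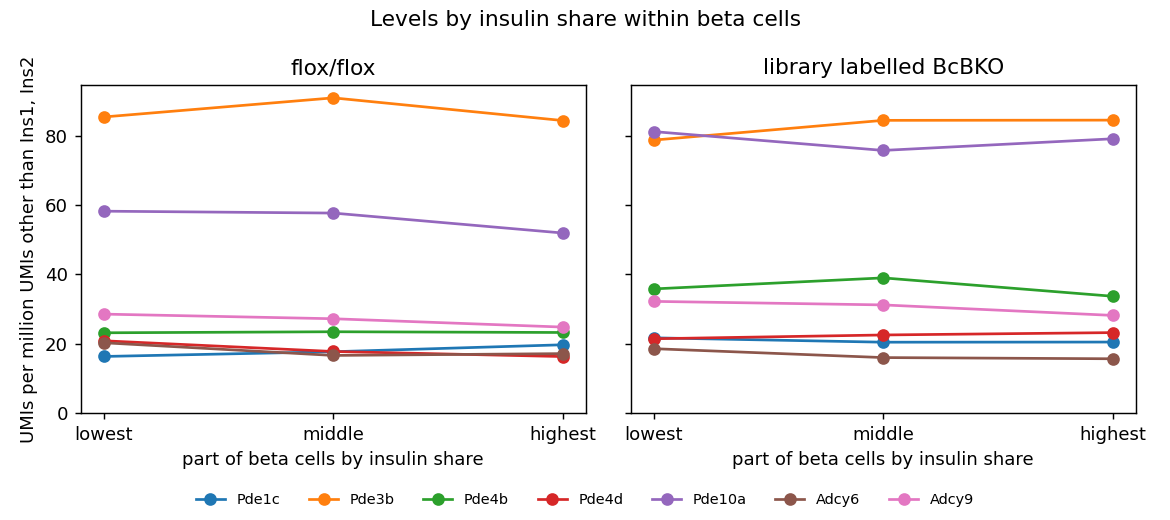
Levels of the 7 measured genes in beta cells with the lowest, middle and highest share of insulin UMIs, in CPM of the UMIs other than Ins1 and Ins2, for the flox/flox library (left) and the library labelled BcBKO (right); each point is 1 part of 1 library. No gene differs by more than 25% between the lowest and highest part in both libraries, and Pde4d does in the flox/flox library (1.28). Pde10a, Pde4b, Pde1c and Pde4d stand higher on the right in every part.

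The rest of the cAMP pathway gave the setting for the 10 genes. A list of 58 genes held the other phosphodiesterases, the other cyclases, G protein subunits, protein kinase A subunits and inhibitors, anchoring proteins, Epac exchange factors, CREB-family factors, 4 receptors and further genes of the pathway. In beta cells 31 of them passed the minimum, 3 were called higher and 0 lower, against 5.56% of all genes called (4.22% higher and 1.34% lower), and their median ratio was 1.05. Those called were Gnaz, an inhibitory G protein subunit, at 18.1 and 24.6 CPM (ratio 1.36), Crem, a cAMP-responsive transcription factor, at 15.4 and 19.8 CPM (1.28), and Pkia, an inhibitor of protein kinase A, at 7.96 and 10.1 CPM (1.27). The lowest ratio belonged to Pde5a, a cGMP-specific phosphodiesterase, at 90.3 and 72.6 CPM (0.804, interval 0.781 to 0.827). Under the totals without hormone and mitochondrial genes 2 of the list were higher and 1 lower: Crem (1.22) and Pkia (1.21) were inside the limits, Gnaz (1.30) and Pde7a, another cAMP-specific phosphodiesterase (1.27, named after its value was seen), were higher, and Pde5a (0.766) was lower. With TMM scaling Gnaz (1.29) alone was higher and Pde5a (0.760) alone lower. Pde5a was higher than any of the 6 member phosphodiesterases in beta cells of both libraries and was at 12.7 and 11.3 CPM in alpha cells. Gipr, the GIP receptor, was at 30.5 and 26.9 CPM (0.881), and Gnai1, another inhibitory subunit, at 5.28 and 4.67 CPM (0.884). Among the most abundant genes of the list in flox/flox beta cells were Gnas, the stimulatory G protein subunit, Gnai2, an inhibitory one, and the protein kinase A subunits Prkar1a and Prkacb, at 434, 147, 138.2 and 138.1 CPM, above all 10 members.

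In alpha cells 35 of the 58 passed, with 5 called higher and 0 lower, against 17.2% and 3.92% of all genes, and a median ratio of 1.10, where that of all genes was 1.08. In delta cells 33 passed, with 5 higher and 2 lower, against 10.8% and 10.9% of all genes. Adcy1, a calmodulin-stimulated cyclase, was at 7.39 and 6.99 CPM in alpha cells and had 3 and 10 UMIs in beta cells, so alpha cells held a cyclase transcript that beta cells almost lacked. Adcy3 was at 6.44 and 5.16 CPM in alpha cells, against 0.574 and 0.567 in beta cells.

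Across the 12 levels of 6 classes in 2 libraries, the members fell into patterns that can be described by correlation of log2(CPM + 1). Classes share libraries and the vessel classes share cells, so these values are descriptions. Pde4d and Adcy6 had r = 0.916, Pde1c and Pde3b 0.901, and Pde8b and Adcy5 0.891. The lowest was between Pde3b and Pde8b, at -0.842. Among 7974 other genes, those most like Pde10a were Stt3a and Arl3 (r = 0.978 for each), most like Pde1c Epb41l5 (0.996) and Tmem130 (0.995), and most like Pde3b Cacna1d (0.984) and Gca (0.982). For Pde4b they were Mrpl12 (0.993) and Shisa5 (0.992), for Pde4d Pitpnm2 (0.988) and Rcn1 (0.979), and for Pde8b Myom1 (0.985) and Plcl1 (0.980). Of the cyclases, Adcy5 was most like Marveld1 (0.988) and Vdac1 (0.985), Adcy6 most like Ate1 (0.985) and Lpp (0.984), Adcy8 most like Arhgap36 (0.933) and Hsp90b1 (0.932), and Adcy9 most like Sorbs2 (0.974) and Clpp (0.968). The correlations of Adcy8 rest mainly on its 18 and 8 UMIs in delta cells.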

How the data were processed

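Single-cell RNA of dissociated mouse islets was measured in 2 libraries, 1 per group. The authors deposited raw UMI counts per gene and cell barcode for each library, which the matrix headers credit to Cell Ranger 6.1.2, whereas the submitters' processing notes name Cell Ranger 3.1.0, Seurat 4.0.0 and the build mm10. The gene annotation used for counting is not given in the sources used here. Positions are those of GENCODE M21.

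Barcodes with at least 500 genes, 1000 UMIs and at most 20% mitochondrial UMIs were kept: 7568 of 9438 and 8504 of 10775, with medians of 12163 and 12695.5 UMIs. UMIs were summed per class and library. Poisson intervals for levels, conditional binomial intervals for ratios and Clopper-Pearson intervals for shares were exact, at 95%, and cover counting error only, as does the limit of 3 counts given for a count of 0. Cells are not replicates, so no test was made. Calls between classes needed 2-fold in the same direction in both libraries. Doublets were left in, and Scrublet, run for 1 of the alternatives, marked 2.25% and 2.08% of cells. Whole-table calls were checked on simulated counts. Alternatives covered totals without hormone and mitochondrial genes, TMM (edgeR 4.0.16), cell filters, doublets, pseudocount, cell weighting, class limits and minimum level. Analyses used Python 3.11.15, scipy 1.17.1 and scanpy 1.11.5.

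All 10 members and the lists, and the rules for naming genes (the 3 highest and lowest ratios of the pathway list, its 5 highest levels, the 2 genes most like each member), were chosen with earlier results of these data known. Some of the genes these rules name are not reported here.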

Additional observations from a re-analysis of the deposited data

How the results depend on the processing

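Over 510 alternative values for single members, 499 stayed within the counting interval of the reported ratio, 9 moved outside it and 2 called ratios reversed; ratios that were not called were not counted as reversed where they crossed equality. The reversals were Pde8b (1.32) and Adcy5 (1.98) in endothelial cells with cells of several classes removed, where 1 and 1 UMIs of the former and 2 and 3 of the latter were left. In beta cells Pde4b ranged from 1.56 to 1.70 and Pde10a from 1.41 to 1.52 over 13 alternatives. Counts of members called moved by over 1.5 times as follows. With a minimum of 20 CPM they were 1 in beta, 2 in alpha, 0 in endothelial and 1 in mural cells and 1 in macrophages, and with no minimum 5 in beta cells and 5 in macrophages. In alpha cells the count was 1 without hormone and mitochondrial genes, 1 with TMM and 1 with cells weighted equally. In delta cells it was 1 with a pseudocount of 1 CPM, 1 with cells weighted equally, 0 without cells of several classes and 0 with Sst from 10%. In macrophages it was 1 with doublets removed, 1 without cells of several classes and 1 with the marker minimum doubled. Between beta and alpha cells and between beta and delta cells it was 2 without hormones, and between alpha and delta cells 1 without cells of several classes. A higher minimum tests fewer genes, and the cause of the other shifts was not tested. Over all genes the calls in beta cells were 431, against 796 without hormones and 722 with thinned cells, 133 with a minimum of 20 CPM and 4994 with none. With the minimum of 20 CPM and with none they were 541 and 5756 (against 2037) in alpha, 864 and 5055 (2047) in delta, 449 and 5489 (1346) in endothelial, 647 and 5361 (1773) in mural cells and 1573 and 7215 (2616) in macrophages. The numbers of genes tested at these other minimums are not given here. Nor are all-gene calls for the alternatives on doublets, several classes, class limits, pseudocount and cell weighting. Member counts there have no share of all genes beside them. No paired analysis was possible because each group is 1 library. Few UMIs were found for Adcy8 in all 6 classes, and for Pde8b and Adcy5 in beta, alpha and delta cells, in macrophages and in endothelial cells of 1 class. In beta cells 3 counts correspond to 0.0250 and 0.0258 CPM, so the low counts there bound the levels closely.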
